A study of Mus musculus with 16 samples.

Results

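The genes examined were 10 growth factors, co-receptors and inhibitors of the early embryo: Nodal, Gdf3, Tdgf1, Lefty1, Lefty2, Fgf4, Fgf5, Fgf8, Fgf15 and Fgf17. They were chosen by symbol and are 10 of the 24238 RefSeq genes of the expression table, with 14 of its 33750 transcript rows. Fgf8 had 4 rows, Fgf5 had 2 and each of the others had 1. Total RNA was taken from embryoid bodies (EBs), aggregates of differentiating cells, made from a suspension of single R1 mouse embryonic stem (ES) cells that had grown for 4 days without Lif in dishes to which cells bind poorly. Day 0 was the time before retinoic acid (RA) was added and day 4 followed 4 days in 2 µM RA. There was no arm without RA at day 4, so the effects of RA and of 4 further days of culture cannot be told apart. Each day had 2 biological replicates, from 2 rounds of the same procedure in 1 cell line, which makes 4 RNA samples. For the libraries, each RNA was split over 4 vials, to which was added mix 1, 2 or 3 of in vitro transcribed mouse spike-ins or none of them (mix 4), with ERCC mix 1 for mixes 1 and 3 and ERCC mix 2 for mixes 2 and 4, which gave 16 stranded libraries depleted of ribosomal RNA. Vials of one RNA sample are technical splits, so all tests used the mean of the 4 vials, 2 RNA samples against 2.

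Nodal and Gdf3 are ligands of the TGF-beta family that act through activin receptors and Smad2 and Smad3, and Nodal needs a co-receptor such as Tdgf1 (Cripto) on the cell surface. Lefty1 and Lefty2 are secreted inhibitors of Nodal and are themselves Nodal targets, so that the pathway feeds back on itself in the epiblast and the primitive streak. The FGFs act through receptor tyrosine kinases and ERK. Fgf4 is made by ES cells and drives them towards differentiation, Fgf5 marks the epiblast after implantation, Fgf8 and Fgf17 belong to one subfamily and Fgf8 is needed in the streak, and Fgf15 is the mouse counterpart of human FGF19, found in the early nervous system and later as an intestinal hormone.

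Expression was given as FPKM, fragments normalised to transcript length and library size, scaled between libraries by TMM factors. From 16550 to 17376 genes were above 0 in a library. Values below 0.5 FPKM lay on whole multiples of a step of 0.00928 to 0.0113 FPKM, depending on the library, within 0.0011 FPKM, as they would if rounded to 2 decimals before scaling. The number of fragments behind a value is therefore unknown, and a gene listed at 0 may have been below the rounding. Day 0 RNA sample 2 was not uniform: its mix 3 and mix 4 vials stood apart from its mix 1 and mix 2 vials along GC content, and results that rest on them are given below with and without them. Where a value fell, fewer cells that make the transcript and less transcript per cell cannot be told apart in bulk RNA.

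At day 0 the 10 genes covered a wide range of levels. Tdgf1 stood highest with a mean of 51.4 FPKM, followed by Fgf15 with 31.1, Lefty2 with 13.7, Fgf8 with 9.42, Lefty1 with 5.96 and Nodal with 5.63 FPKM. Fgf4 had a mean of 1.95, Gdf3 of 1.18, Fgf17 of 0.886 and Fgf5 of 0.288 FPKM. The ranges of the 2 RNA samples overlapped for Fgf8 with Lefty2, Lefty1 and Nodal, for Lefty1 with Nodal, and for Gdf3 with Fgf17, so their order is not fixed by these samples. At day 4 the order was different, with Fgf5 at the top at 1.07 FPKM, Lefty2 at 0.397, Tdgf1 at 0.388 and Lefty1 at 0.247 FPKM, and the other 6 genes below 0.1 FPKM. Lefty2 overlapped with Tdgf1 there, and Nodal, Gdf3 and Fgf15 with each other. Of the 10 genes, 8 had a mean of at least 1 FPKM at day 0 and 1 had so at day 4.

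**Figure D1:**
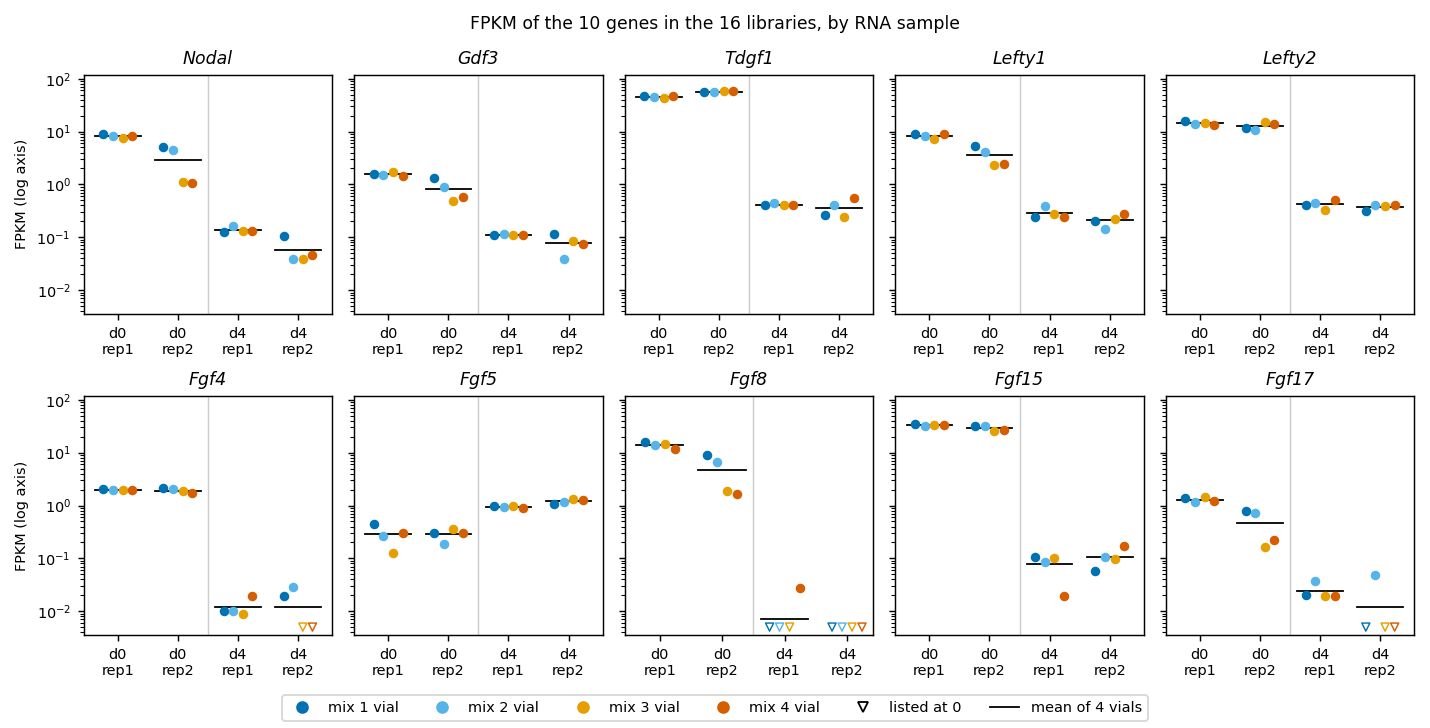
FPKM of each of the 10 genes (log axis) in the 16 libraries, grouped by RNA sample (day and replicate), with vials coloured by spike-in mix, horizontal lines at the mean of 4 vials and open triangles at the foot for values listed at 0. Day 0 and day 4 do not overlap for any gene; the mix 3 and mix 4 vials of day 0 replicate 2 lie apart for Nodal, Gdf3, Lefty1, Fgf8 and Fgf17.

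With limma on log2(FPKM + 0.1) and Benjamini-Hochberg adjustment over all 20553 genes above 0 in any library, 9 of the 10 genes were lower at day 4 and 1, Fgf5, was higher, at an adjusted p of at most 0.05. Over all genes tested, 14.5% were called lower (2972 genes) and 16% higher (3283 genes). The median log2 difference was -4.45 for the 10 genes and -0.03 for all genes tested. All 10 genes passed the filter, and for all 10 the 8 libraries of day 0 and the 8 of day 4 did not overlap, as was so for 34.3% of all genes tested (14.6% with day 4 below day 0 and 19.8% with day 4 above). The replicate number may mark the round of the procedure, which the study does not state. With the replicate number as a block all 10 calls were made again, while the calls over all genes grew to 5963 lower and 4620 higher. Without day 4 replicate 1, or without day 4 replicate 2, where the lone sample is assumed to vary like those of day 0, limma called 0 of the 20553 genes, with 4943 and 4721 genes at an unadjusted p of at most 0.05, among them 9 and 8 of the 10 genes. Leaving out day 0 replicate 1 ended the call of Fgf5 alone among the 10 (adjusted p = 0.0647 by limma).

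Nodal, the ligand, had 8.30 FPKM in day 0 replicate 1 and 2.96 in day 0 replicate 2, against 0.138 and 0.0575 FPKM in the replicates of day 4. Both day 4 samples were far below both day 0 samples, but the replicates of day 0 also differed, and within replicate 2 the vials ran from 1.08 to 5.13 FPKM. Between the days the mean FPKM was 57.7-fold higher at day 0, and the log2 difference was -4.71 ± 0.61 (standard error; limma adjusted p = 0.0151). Without the mix 3 and mix 4 vials of day 0 replicate 2 it was -5.06 (adjusted p = 0.00232). With the 3685 genes that were 0 in every library also in the fit, the adjusted p of Nodal was 0.0503.

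Gdf3, a ligand related to Nodal that can also hold back BMP signals, was at 1.55 and 0.816 FPKM in the 2 day 0 samples and at 0.112 and 0.0790 FPKM in the 2 day 4 samples. It was low throughout, and the day 0 vial with the least (0.482 FPKM) was still above the day 4 vial with the most (0.117 FPKM). The log2 difference was -2.66 ± 0.37 (limma adjusted p = 0.0173), and -2.86 without the divergent vials (adjusted p = 0.00258). Of the other ligands of this receptor family on the list, Inhba, a subunit of activin, was called higher and Gdf1 and Inhbb were not called. Inhba was low on both days, at 0.0380 and 0.0350 FPKM and then at 0.253 and 0.191 FPKM. Gdf1 was at 1.32 and 0.0455 FPKM at day 0 and at 0 in both day 4 samples (limma adjusted p = 0.227).

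Tdgf1, the co-receptor of Nodal, was the most abundant of the 10 at day 0, with 45.7 and 57.0 FPKM. At day 4 it was at 0.413 and 0.363 FPKM. The vials of a day 0 sample agreed closely, from 43.5 to 47.1 in replicate 1 and from 55.3 to 58.6 FPKM in replicate 2, and no day 4 vial was above 0.551 FPKM. The mean was 132-fold higher at day 0, with a log2 difference of -6.71 ± 0.22 (limma adjusted p = 0.00468). With 45.3% GC, Tdgf1 was the one of the 10 least rich in G and C, and its value was -6.70 without the 2 divergent vials. Of the 100-base windows of its transcript, 4.69% are also found in the pseudogene Tdgf1-ps1 (GENCODE M21), so a small part of its reads may be shared.

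The promoters of Nodal, Tdgf1, Fgf4 and Fgf5 were in the RefSeq promoter table (GRCm38.p6, 250 bases before to 50 after the start), and their letters were searched on both strands. The motifs were AATNNACA and its form AATCCACA, which resemble the site of Foxh1, a partner of Smad2 in the Nodal response, the octamer ATGCAAAT, and direct repeats of AGGTCA with a gap of 2 or 5 bases, or of GGTCA with a gap of 3 or 6, the spacings of RA response elements. The only matches among the 4 were 2 copies of AATNNACA in the Tdgf1 promoter, starting 127 and 101 bases before the start site. Of all 32851 promoters, 12.2% hold at least 1 copy, and the share with 2 copies is not given here. The motif is rich in A and T, and the Tdgf1 promoter has 41.7% GC, with 13.4% of promoters lower. AATCCACA occurs in 0.855% of all promoters and the octamer in 1.74%. The repeats of AGGTCA occur in 0.00913% at either gap, and those of GGTCA in 0.0670% at a gap of 3 and 0.10% at a gap of 6. The stretch of chr9:110946232-110946305, on the minus strand, is printed to show both matches in capitals, in the promoter of the gene with the highest level of the 10.
Tdgf1 promoter, 147 to 74 bases before the start: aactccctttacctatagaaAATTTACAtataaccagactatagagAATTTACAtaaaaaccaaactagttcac

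The inhibitors Lefty1 and Lefty2 lie 35.9 kb apart on chromosome 1 and code for closely related proteins. Lefty1 started from 8.33 and 3.59 FPKM and ended at 0.285 and 0.209 FPKM. Lefty2 started from 14.5 and 12.8 FPKM and ended at 0.420 and 0.374 FPKM. Both fell in both replicates: Lefty1 by a log2 difference of -4.02 ± 0.50 (limma adjusted p = 0.0140) and Lefty2 by one of -4.79 ± 0.22 (limma adjusted p = 0.00468). Without the divergent vials they were at -4.21 (limma adjusted p = 0.00257) and -4.70 (0.00120). The mean was 24.1-fold higher at day 0 for Lefty1 and 34.5-fold higher for Lefty2.

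Lefty2 was above Lefty1 in all 4 RNA samples, with an FPKM ratio of 1.74 and 3.57 in the day 0 replicates and 1.47 and 1.78 in the day 4 replicates. The ratio of 3.57 came from the sample with divergent vials, where Lefty1 (58.6% GC) was lower in the mix 3 and mix 4 vials and Lefty2 (51.5% GC) was higher. In its mix 1 and mix 2 vials alone it was 2.38. The ratios of the days overlapped. Reads that match both genes had to be divided between them by the model: 4.80% of the 100-base windows of Lefty1 and 3.07% of those of Lefty2 are identical in the other.

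Fgf15 had the largest log2 difference of the 10 with 0.1 FPKM added, while Fgf8 had a larger one with 0.01 added (-9.30 against -8.25) and Tdgf1 with 1 added (-5.23 against -4.87). Its 2 day 0 samples had 33.2 and 29.1 FPKM, while the day 4 samples had 0.0790 and 0.107 FPKM. No day 0 vial was below 25.2 FPKM and no day 4 vial above 0.168 FPKM. Its mean was 335-fold higher at day 0 and the log2 difference was -7.34 ± 0.23 (limma adjusted p = 0.00468).

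Fgf4, the FGF of ES cells and the inner cell mass, had 1.98 and 1.92 FPKM at day 0, the closest pair of replicates among the genes that fell. At day 4 both samples had a mean of 0.0120 FPKM, with 2 of the 8 libraries listed at 0 and the other 6 at no more than 3 rounding steps. The log2 difference of -4.19 ± 0.19 (limma adjusted p = 0.00468) therefore depends on the added 0.1 more than those of abundant genes do, and ran from -6.48 with 0.01 added to -1.54 with 1 added, called in both cases.

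Fgf17 was near 1 FPKM at day 0, with 1.30 in replicate 1 and 0.472 in replicate 2, and at 0.0240 and 0.0120 FPKM at day 4. In day 4 replicate 2, 3 of the 4 vials were listed at 0, and the highest day 4 vial had 0.0480 FPKM, which is 5 rounding steps. The days did not overlap, since the lowest day 0 vial had 0.167 FPKM. Its log2 difference was -2.92 ± 0.49 (limma adjusted p = 0.0246), and -3.21 without the divergent vials (adjusted p = 0.00318). With 1 FPKM added in place of 0.1 it was -0.85 and no longer called (adjusted p = 0.0839).

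Fgf8 had 14.1 FPKM in day 0 replicate 1 and 4.77 in day 0 replicate 2. At day 4 it was listed at 0 in 7 of 8 libraries and at 0.0280 FPKM, 3 rounding steps, in the mix 4 vial of replicate 1. All 8 day 0 libraries were far above these, the lowest at 1.64 FPKM. The log2 difference was -6.33 ± 0.60 (limma adjusted p = 0.00874), and no ratio of FPKM is given against a day at 0. With day 4 near 0, the size of the difference is set by the amount added, and it ran from -9.30 with 0.01 added to -3.22 with 1 added, called in both cases. Without the mix 3 and mix 4 vials of day 0 replicate 2 it was -6.67.

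Alternative splicing near the start of the Fgf8 coding region gives forms that differ in the N-terminal part of the mature protein. The 4 RefSeq rows differ in 3 coding segments, each a multiple of 3 bases in length, on the minus strand of chromosome 19 (GRCm38). The segment of 33 bases, at chr19:45741647-45741679, is in NM_001166362 and NM_001166361 and distinguishes the form usually called FGF8b (NM_001166362, 215 residues) from FGF8a (NM_001166363, 204 residues). FGF8b is known as the form with the stronger activity on FGF receptors. The segment of 87 bases, at chr19:45741911-45741997, is in NM_001166361, and that of 192 bases, at chr19:45742324-45742515, is in NM_010205. The matched GENCODE M21 transcripts, which run from 843 to 1168 bases, also differ at their ends. All 3 segments are printed because they are the coding bases by which the rows differ.
Fgf8 segment of 33 bases: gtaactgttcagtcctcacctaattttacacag
Fgf8 segment of 87 bases: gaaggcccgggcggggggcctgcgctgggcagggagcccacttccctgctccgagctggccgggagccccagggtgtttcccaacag
Fgf8 segment of 192 bases: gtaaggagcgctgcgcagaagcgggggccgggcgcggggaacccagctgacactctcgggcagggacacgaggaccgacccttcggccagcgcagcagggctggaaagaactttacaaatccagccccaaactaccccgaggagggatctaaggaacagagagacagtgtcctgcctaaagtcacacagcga

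At day 0 the Fgf8 signal was spread over all 4 rows. NM_001166362 held 38.2% ± 1.46 (SD, n = 2 RNA samples) of the summed FPKM, NM_010205 held 35.3% ± 6.12, NM_001166363 held 16.7% ± 5.68 and NM_001166361 held 9.73% ± 1.89. The rows with the 33-base segment together made up 48.3% in replicate 1 and 47.7% in replicate 2. Single vials of one RNA were much less alike than these means: in replicate 2 the share with the 33 bases was 42.6%, 62.9%, 45.9% and 15.4% in the mix 1 to mix 4 vials, and 1 of the 4 rows was listed at 0 in each of the mix 2, mix 3 and mix 4 vials. In replicate 1 it was between 43.0% and 52.1%. Between 12.9% and 26.8% of the 100-base windows of a row occur in no other row, so the division rests on few reads, and at day 4 there was too little Fgf8 to divide.

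**Figure D2:**
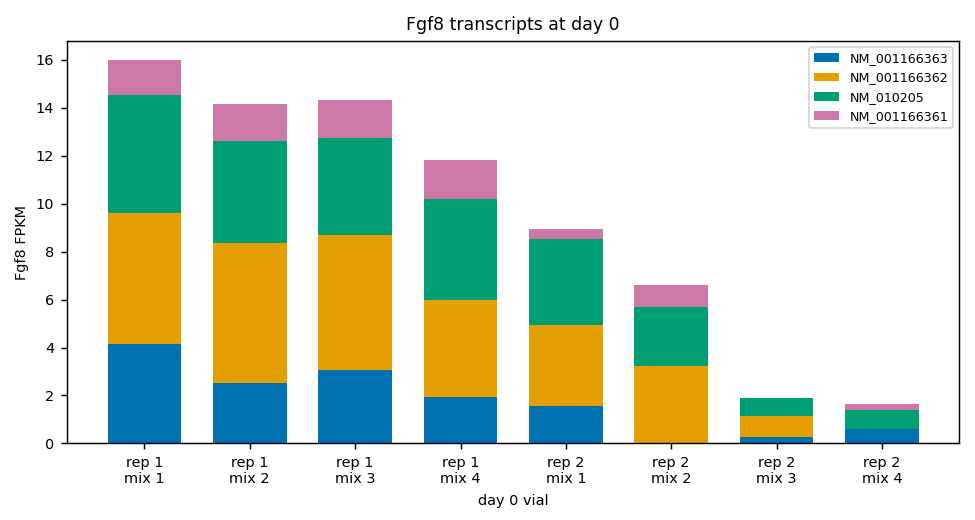
Stacked bars of the FPKM of the 4 Fgf8 RefSeq transcripts in each of the 8 day 0 vials. The bars of replicate 1 reach at least 11.8 FPKM and the shortest bar of replicate 2 reaches 1.64, and the mix 2, mix 3 and mix 4 vials of replicate 2 each lack 1 transcript.

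Fgf5 went the other way. It was at 0.288 and 0.289 FPKM in the 2 day 0 samples and at 0.943 and 1.2 FPKM in the 2 day 4 samples. The day 0 vials reached 0.450 FPKM at most and the day 4 vials began at 0.891 FPKM, so the days did not overlap. The mean was 3.71-fold higher at day 4, and the log2 difference was 1.58 ± 0.24 (limma adjusted p = 0.0207). It was the lowest of the 10 at day 0 and the highest at day 4, at a level that stayed near 1 FPKM.

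In the matched GENCODE M21 transcripts the 2 Fgf5 rows differ by exon 2 and at both ends. NM_010203, with 3 exons, codes for the full protein of 264 residues, and NM_001277268 joins exon 1 to the last exon and codes for 121 residues, the short form known as an antagonist of FGF5 in hair follicles. The 104 bases of the skipped exon lie at chr5:98261943-98262046 on the plus strand (GRCm38) and are printed because leaving them out joins exon 1 to the last exon. The transcript matched to the short row has 600 bases against 2501 and also lacks 228 bases at the start and 1569 at the end, so 83.2% of the 100-base windows of the full-length transcript are not in the short one. The length that the authors used for the short row was not known here.
Fgf5 exon 2: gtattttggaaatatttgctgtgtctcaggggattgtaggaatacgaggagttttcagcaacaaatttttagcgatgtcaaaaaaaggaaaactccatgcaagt

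At day 4 the full-length row held 89.2% ± 1.10 (SD, n = 2 RNA samples) of the Fgf5 FPKM, with 0.848 and 1.06 FPKM in the 2 samples, and was above 0 in all 8 vials. The short row had 0.0943 and 0.138 FPKM and was listed at 0 in 5 of 8 vials. At day 0 the rows had 0.132 and 0.167 FPKM (full length) and 0.156 and 0.122 FPKM (short), with 4 and 3 of 8 vials at 0, and a share is not meaningful at that level. Tested as single transcripts, the full-length row had a log2 difference of 2.07 (limma adjusted p = 0.0303) and the short row one of -0.15 (0.608). Both tests rest on the uncertain division of Fgf5 between the rows at day 0.

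The divergent vials of day 0 replicate 2 touched the genes unequally. In that RNA the FPKM of the mix 3 and mix 4 vials, relative to the mix 1 and mix 2 vials, was 0.225 for Nodal, 0.228 for Fgf8, 0.260 for Fgf17, 0.483 for Gdf3 and 0.508 for Lefty1. For Fgf15 it was 0.815, for Fgf4 0.859, for Tdgf1 1.05, for Lefty2 1.26 and for Fgf5, which had under 0.5 FPKM in each of these vials, 1.35. Fgf8 has the highest GC content of the 10 at 63.7%, and Lefty1, Fgf17 and Nodal have 58.6%, 58.1% and 55.9%. Other genes lay away from the trend. Gdf3 (49.5% GC) was at a log2 difference of -0.93, where the median of genes at 45 to 50% was 0.01. Lefty2 (51.5%) was at 0.33, where the median at 50 to 55% was -0.81. Fgf5 was at 0.32. Its GC content of 52.2% is the mean of a short row at 57.3% and a full-length row at 47.0%, so its place on the trend is not fixed. Over the 8 genes at 1 FPKM or more at day 0, Pearson's r between GC content and the log2 difference between the vials was -0.77 and Spearman's rho was -0.67. For all 11174 genes at that level they were -0.81 and -0.87. These are descriptions across genes of 1 RNA sample, which share its libraries. In day 0 replicate 1 the same comparison gave medians between -0.15 and -0.01 in all GC bins.

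**Figure D3:**
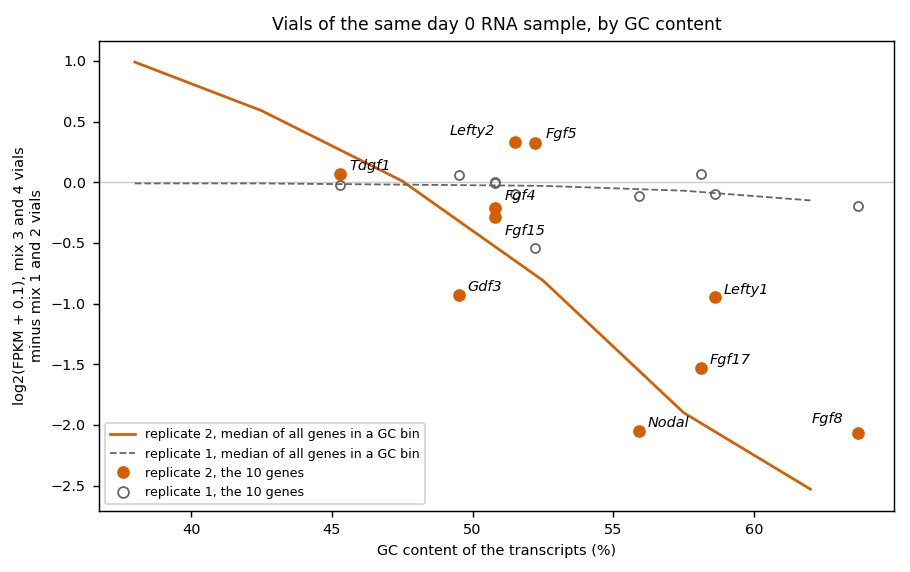
Log2 difference between the mix 3 and 4 vials and the mix 1 and 2 vials of one day 0 RNA sample (vertical axis) against transcript GC content in % (horizontal axis), for the 10 genes (points) and as medians of all genes in GC bins (lines), in replicate 2 (orange) and replicate 1 (grey). In replicate 2 the bin medians run from 0.99 down to -2.53 and Nodal, Fgf8 and Fgf17 lie lowest, while in replicate 1 the bin medians stay between -0.15 and -0.01 and the 10 genes between -0.54 (Fgf5) and 0.07.

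GC content also moved with the difference between the days. Among genes with a mean of at least 1 FPKM, the median log2 difference of day 4 minus day 0 was 0.71 below 40% GC, 0.10 at 45 to 50%, -1.20 at 55 to 60% and -1.71 at 60% or more. Without the divergent vials it was 0.98 below 40% and -2.09 at 60% or more. After each library was corrected for GC content, a setting chosen after the data were seen, all 10 genes kept their calls. The values nearer to 0 were those of the GC-rich genes, at -3.87 for Nodal, -2.96 for Lefty1, -5.43 for Fgf8 and -2.15 for Fgf17. Tdgf1 at -6.94, Fgf15 at -7.22, Lefty2 at -4.60, Fgf4 at -4.11 and Gdf3 at -2.63 moved less, and Fgf5 was at 1.83. The largest limma adjusted p among the 10 was then 0.0101, for Fgf5, which was corrected at the mean GC content of its 2 rows.

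**Figure D4:**
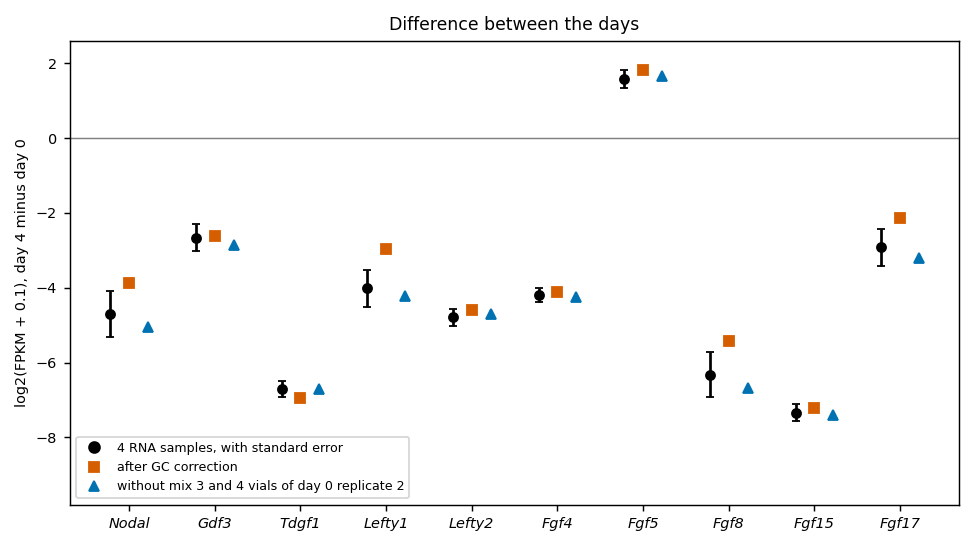
Day 4 minus day 0 difference of log2(FPKM + 0.1) for each of the 10 genes: black circles with standard errors from limma on 4 RNA samples, orange squares after GC correction, blue triangles without the mix 3 and mix 4 vials of day 0 replicate 2. All 3 settings place 9 genes below 0 and Fgf5 above, and the GC-rich genes Nodal, Lefty1, Fgf8 and Fgf17 move most under the correction.

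Calls among the other receptors of the Nodal pathway went both ways. Of 5 other receptors and co-receptors, 1 was called lower and 1 higher, with a median of -1.05. After GC correction 3 were called lower and 1 higher, and without the divergent vials 3 lower and 2 higher. Over all 20553 genes tested, 5114 were called lower and 5560 higher after GC correction. Without the divergent vials 6888 were called lower and 5560 higher. Before either change the numbers were 2972 lower and 3283 higher. Counts under these settings, in this list and those below, are to be read beside these totals. Cfc1 (Cryptic), the second co-receptor of the family, was at 5.96 and 5.78 FPKM at day 0 and at 0.0143 and 0.0187 FPKM at day 4, a log2 difference of -5.68 (limma adjusted p = 0.00468). The type II receptor Acvr2b had 7.76 and 2.15 FPKM before RA, 0.598 and 0.294 FPKM after it, and was not called (limma adjusted p = 0.0528). Its GC content is 64.0%, and it was called lower both without the divergent vials (log2 difference -3.43, adjusted p = 0.00763) and after GC correction (-1.31, adjusted p = 0.0268, both by limma). The type I receptor Acvr1b, not called at -1.05 (limma adjusted p = 0.0577), was likewise lower in both settings, at -1.22 (0.00510) without the vials and -0.59 (0.00522) after correction. Acvr2a was called higher without the vials (1.12, limma adjusted p = 0.00486).

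Among 6 transducers, 1 was called lower and 5 were not called. After GC correction 1 was lower and 2 were higher, and without the divergent vials 2 were lower and 3 higher. Foxh1, the DNA-binding partner of the Smads in the Nodal response, was at 102 and 37.3 FPKM at day 0 and at 0.0877 and 0.0405 FPKM at day 4 (log2 difference -8.57, limma adjusted p = 0.00537). Smad2, the signal carrier itself, was at 13.9 and 16.9 and then at 18.5 and 19.9 FPKM, and was not called (limma adjusted p = 0.223), but was called higher without the divergent vials (log2 difference 0.41, adjusted p = 0.0220). Smad3, which carries the signal with Smad2, was not called at 0.94 (limma adjusted p = 0.0585) but was called higher in both settings, at 1.35 (9.70e-04) after correction and 0.76 (0.00827) without the vials. Smad4 was called higher without the vials (0.37, limma adjusted p = 0.0229). Drap1, not called at -0.91, was called lower without the vials (-1.30, limma adjusted p = 0.0272) and higher after GC correction (0.75, limma adjusted p = 0.00191). The median of the transducers was 0.16.

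Of 7 inhibitors other than the Leftys, 2 were called lower and 5 were not called (1 lower and 1 higher after GC correction, 2 lower and 1 higher without the divergent vials). The called ones were Fst (follistatin, which binds activin), with a log2 difference of -2.79, and Smad7, with -1.35. Smad7 was at -0.35 after GC correction and no longer called (limma adjusted p = 0.499). Cer1, a Nodal antagonist of the anterior visceral endoderm, was at 0.0330 and 0.135 FPKM at day 0 and near 0 at day 4, and was not called (limma adjusted p = 0.134). Both convertases that cleave the Nodal precursor, Furin and Pcsk6, were not called. They were both called lower without the divergent vials and neither was after GC correction.

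Of 7 genes that Nodal can induce, 4 were called lower, 1 higher and 2 were not called, with a median of -3.33. After GC correction 5 were lower and 0 higher, since Foxa2, called higher at 1.18 (limma adjusted p = 0.0414), was at 1.79 with an adjusted p of 0.0784, and Lhx1, at -1.01 (0.0553), was called lower at -0.68 (0.0211). Without the divergent vials 5 were lower and 1 higher. T (brachyury) went from 72.7 and 61.3 FPKM to 0.0238 and 0.0143 FPKM, a log2 difference of -9.13 (limma adjusted p = 0.00468). Mixl1 went from 35.2 and 43.5 to 0.450 and 0.515 FPKM and Eomes from 13.9 and 16.8 to 0.0670 and 0.0813 FPKM. These also mark the primitive streak. The whole list of 8 streak and early mesoderm markers was called lower, and its summed level was 169 to 206 FPKM in the day 0 libraries and 17.0 to 19.1 FPKM in those of day 4. Most of the day 4 sum was Kdr, which went from 44.7 and 45.3 FPKM to 17.5 and 17.0 FPKM. The part of streak and mesoderm cells in the values of the 10 genes was not tested.

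**Figure D5:**
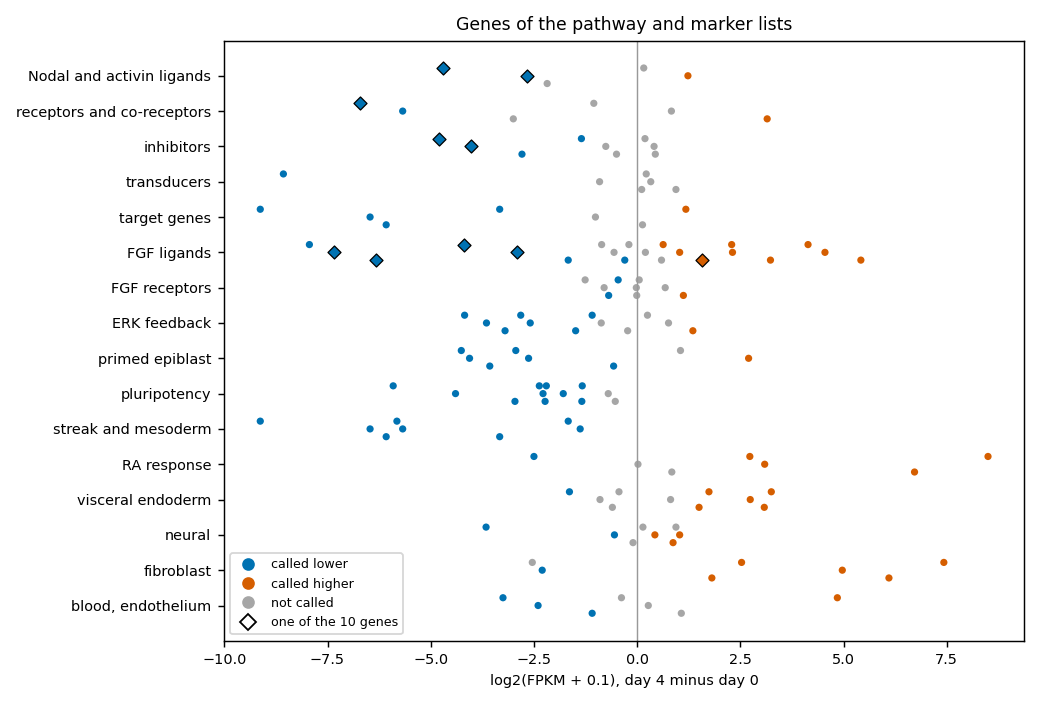
Day 4 minus day 0 difference of log2(FPKM + 0.1) for every tested gene of 16 pathway and marker lists (rows), coloured by call at an adjusted p of at most 0.05, with the 10 genes as diamonds. All 8 streak and mesoderm genes and 10 of 12 pluripotency genes are called lower, while the FGF genes (the row named FGF ligands) are found on both sides of 0.

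The FGF genes, not all of which code for secreted ligands, moved both ways. Of the 16 tested FGF genes other than the 5 described above, 3 were called lower, 8 higher and 5 were not called (5 lower and 8 higher without the divergent vials), and Fgf6 was at 0 in all libraries. Fgf3, a secreted ligand of the streak and hindbrain, was at 43.2 and 17.5 FPKM at day 0 and at 0.00475 and 0.0215 FPKM at day 4 (log2 difference -7.94, limma adjusted p = 0.00537). Fgf11, an FGF-related protein that stays in the cell, rose from 0.181 and 0.256 to 14.3 and 12.6 FPKM (log2 difference 5.42, limma adjusted p = 0.00468). The median over all 21 tested FGF genes was 0.20.

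Of 9 FGF receptors and adaptors, 2 were called lower, 1 higher and 6 were not called (1 lower and 4 higher after GC correction, 3 lower and 2 higher without the divergent vials). Fgfr1, the main FGF receptor of the epiblast, was at 16.8 and 8.05 FPKM and then at 5.44 and 4.25 FPKM, and was not called (limma adjusted p = 0.0979). Without the divergent vials it was called lower (log2 difference -1.52, limma adjusted p = 0.0105), and after GC correction it was at -0.16 and not called. Of 12 ERK feedback and target genes, 7 were called lower, 1 higher and 4 were not called, with a median of -1.29. Dusp4, a phosphatase of ERK, had a log2 difference of -4.18, the transcription factor Etv4 -3.65 and Spry4, an inhibitor of the pathway, -3.20, all called. Dusp6, another ERK phosphatase, was at 43.6 and 43.7 FPKM and then at 18.7 and 22.5 FPKM, a log2 difference of -1.09 (limma adjusted p = 0.0199). After GC correction 7 of the 12 were called lower and 2 higher, and without the divergent vials 8 lower and 3 higher.

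The labels call the cells embryonic stem cells, and the pluripotency markers were present at day 0. Their sum was 84.2 to 199 FPKM in the day 0 libraries and 15.2 to 22.1 FPKM in the day 4 libraries, with 10 of 12 called lower and none at 0 throughout. Pou5f1 (Oct4) went from 87.3 and 37.2 FPKM to 1.03 and 0.693 FPKM, and Nanog from 6.45 and 6.02 FPKM to 1.36 and 1.15 FPKM. Of 8 genes of the primed epiblast, 6 were called lower, among them Otx2 (log2 difference -3.57) and Dnmt3b (-4.06), and 1, Pou3f1, was higher (4 lower and 2 higher after GC correction). Fgf5, with its rise, was on the side of Pou3f1. The streak markers described above were present in the same day 0 libraries. Without the divergent vials, and after GC correction, all 8 streak genes and 10 of the 12 pluripotency genes were called lower as before.

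Markers of other cells moved as well. Of 7 RA response genes, 4 were called higher, with Rarb from 0.190 and 0.200 FPKM to 106 and 107 FPKM and Dhrs3 from 1.00 and 0.573 to 101 and 81.4 FPKM, and Cyp26a1, which breaks down RA, was lower at 8.43 and 9.34 FPKM from 48.9 and 52.4 FPKM. Of 10 visceral endoderm genes, 5 were called higher, 1 lower and 4 not, and their sum went from 19.5 to 22.4 FPKM at day 0 to 82.9 to 85.8 FPKM at day 4, led by Gata6. The 7 fibroblast genes summed to 6.24 to 33.5 FPKM at day 0 and 208 to 235 FPKM at day 4, mostly Col3a1 at 162 and 152 FPKM, with 5 called higher and 1 lower. Of 8 neural genes, 3 were called higher and 2 lower, at sums of 23.3 to 44.5 FPKM and 21.4 to 24.5 FPKM, and of 7 blood and endothelium genes, 1 was called higher and 3 lower, at sums of 51.3 to 91.8 FPKM and 81.3 to 116 FPKM. No gene of these lists was at 0 in all libraries. The part of a changed cell makeup in the values of the 10 genes was not tested.

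The genes most like Nodal over the 4 RNA samples were sought by the root mean square difference of centred log2 values among 11604 genes with a mean of at least 1 FPKM. The 5 nearest were Crip1 (0.10), Exoc3l (0.10), Parp10 (0.11), Isg15 (0.12) and Castor1 (0.16). They share with Nodal a low day 0 replicate 2, such as 53.7 and 20.9 FPKM for Crip1, and their GC content lies between 52.8% and 60.7%. Of the other 9 genes, Lefty1 ranked 44 with a difference of 0.37 and Lefty2 ranked 88 with 0.48. Fgf8 ranked 319, Tdgf1 ranked 724 and Fgf15 ranked 1174 of the 11604. Gdf3, Fgf4, Fgf5 and Fgf17 were below the limit and were not ranked. The likeness rests on 4 points of which 2 pairs are days, so it is a description of these samples. The values used include the divergent vials, and the ranking was not made without them or after GC correction.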

How the data were processed

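The authors aligned stranded paired-end reads of 100 bases with Bowtie2 2.1.0 to RefSeq transcripts (mm10, the same build as GRCm38) plus spike-in transcripts, estimated abundances with RSEM 1.2.18 and deposited a table of FPKM scaled by TMM, with 1 row per transcript. Read counts per transcript were not used here, so counting error is not known. All 16 columns belong to a sample. Days and mixes come from the labels, and the study's sample table ties vials to RNA samples.

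Gene values were sums of transcript FPKM (98.6% of RefSeq rows had a symbol), averaged over the 4 vials of each RNA sample. limma 3.58.1 in R 4.3.3 (lmFit, eBayes with trend) compared 2 with 2 RNA samples on log2(FPKM + 0.1), without a block, over 20553 genes above 0 in any library, with Benjamini-Hochberg adjustment and a threshold of 0.05. P-values measure the spread between 2 replicates. The study describes 2 repeats of 1 procedure but does not state that equal replicate numbers share a round. The replicate differences of the days correlated (r = 0.753 over 11605 genes), so a fit with the replicate as a block was also run. This correlation used all vials without GC correction, and its cause was not tested. GC content came from GENCODE M21 transcripts (97.3% of genes), as the unweighted mean over the rows of a gene. The correction removes from each library its trend on GC content, drawn through medians of GC bins. It was made before the vials were averaged. On simulated data for this comparison (20553 genes, 200 changed) the limma fit recovered 93.0% of changes of 4 and 75.0% of changes of 2 on the log2 scale, with 2.33% false calls. The changed genes were drawn from those with a mean log2(FPKM + 0.1) above 0, and the simulated noise was independent between genes and samples. These rates therefore need not hold for genes at low levels, or for data whose replicate differences are shared as they are here.

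The 10 genes and the gene lists were chosen with earlier results of these data known. Named genes are the 10, from each list up to 4 called genes with the largest difference among those of at least 1 FPKM plus 10 fixed genes, and the 5 most like Nodal; other names were chosen after their values were seen. Alternatives were other pseudocounts, filters, variance models, scalings, single mixes and left-out replicates or vials. Python 3.11.15, pandas 2.3.3, numpy 2.4.6 and matplotlib 3.10.9 were used. Sequences come from GENCODE M21 transcripts and RefSeq promoters. Microarray data were not used here.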

Additional observations from a re-analysis of the deposited data

Results flagged for a closer look

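In 6 of 39 sets of 4 vials of one RNA sample, 1 vial stood apart from the other 3 by Dixon's criterion on log2(FPKM + 0.1), where chance gives about 1 in 20 for normal values without ties. All 6 were day 4 sets, each with 1 high vial at very low levels. Nodal was at 0.163 FPKM in the mix 2 vial of replicate 1, against 0.127 to 0.130 in the others, and at 0.107 FPKM in the mix 1 vial of replicate 2, against 0.0380 to 0.0470. Fgf4 was at 0.0190 FPKM in the mix 4 vial of replicate 1, against 0.00900 to 0.010. Fgf8 was at 0.0280 FPKM in the mix 4 vial of replicate 1, with the others at 0. Fgf17 was at 0.0380 FPKM in the mix 2 vial of replicate 1, against 0.0190 to 0.0200, and at 0.0480 FPKM in the mix 2 vial of replicate 2, with the others at 0. The differences for Fgf4, Fgf8 and Fgf17 are 1 to 5 rounding steps. With 3 vials tied at 0, as for Fgf8 in replicate 1 and Fgf17 in replicate 2, any other value above 0 is flagged. The rate of 1 in 20 therefore does not apply to such sets, and the number flagged cannot be set against it.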

How the results depend on the processing

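No gene among the 10 changed direction at the gene level under any alternative. Of 240 gene-level and transcript-level values, 200 kept their side of the threshold, 39 lost it and 1 changed sign, the short Fgf5 transcript (-0.15). The number of the 10 called lower was 4 with the mix 3 vials alone and 4 with the mix 4 vials alone, with 0 called higher in both, which left Tdgf1, Lefty2, Fgf4 and Fgf15. It ranged from 0 to 9 without one replicate, and the number called higher from 0 to 1. With the filter at 1 FPKM, 0 were called higher, since Fgf5 was not tested, nor were Gdf3, Fgf4 and Fgf17. With the genes at 0 kept in the adjustment, Nodal, Gdf3 (adjusted p = 0.0519) and Fgf17 (0.0742) lost their calls. As single transcripts, NM_001166361 (0.0521) and NM_001166363 (0.0518) of Fgf8 were not called.

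Over all genes, the number called lower was 1639 with all genes kept, 5963 with the replicate block, 6676, 183 and 366 with the vials of mix 1, mix 3 or mix 4 alone, 6888 without the divergent vials, 4582 with 16 libraries and the RNA sample as a random block, 5114 after GC correction and 5762 after GC correction with the replicate block. The number called higher was 2094 with the filter at 1 FPKM (fewer genes tested), 4930, 532 and 1046 with mix 1, mix 3 or mix 4 alone, 5560 without the divergent vials, 5560 after GC correction and 6074 with GC correction and the block. Without one replicate they ranged from 0 to 5535 lower and from 0 to 3654 higher. The cause was not tested. In TPM the median of all genes was 0.09, against -0.03 in the FPKM, and all 10 calls were kept.

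Isoform shares moved between vials: NM_001166361 from 0 to 15.4%, NM_010205 from 28.1% to 48.5%, NM_001166363 from 0 to 36.1% and NM_001166362 from 0 to 48.7% of Fgf8 at day 0, the last at 39.9% without the divergent vials, and NM_001277268 from 0 to 52.8% and NM_010203 from 47.2% to 100% of Fgf5 at day 4. Rounding and unknown fragment counts limit the day 4 values of Fgf4, Fgf8 and Fgf17, which are a few rounding steps. All tests are limited by 2 replicates a day.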

Other observations

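The following genes were chosen after their values were seen. Fgf4 and Fgf15 lie 31.3 kb apart on chromosome 7 (GRCm38), with Fgf3 18 kb from Fgf4 and Ccnd1, a cyclin of the G1 phase, 29.0 kb from Fgf15. All 4 were called lower at day 4, Ccnd1 from a mean of 63.0 to 5.84 FPKM (log2 difference -3.38, limma adjusted p = 0.00663). LTO1, 14.1 kb from Fgf15, was at 6.28 and 4.73 FPKM and was not called (limma adjusted p = 0.435). Gdf3 is 16.3 kb from Dppa3 and 97.4 kb from Nanog on chromosome 6, both called lower (-1.33 and -2.23). Near Fgf8 on chromosome 19, Npm3 was called lower (-1.84) at 4.79 kb, and Oga, 7.31 kb away, was at 0.66 and not called.

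Ligands that were almost silent at day 0 were found at day 4. Fgf9 went from 0.0248 and 0.0365 FPKM to 2.84 and 3.08 FPKM, Fgf20 from 0.00575 and 0.0245 FPKM to 1.74 and 2.12 FPKM and Fgf1 from 0.124 and 0.121 FPKM to 2.09 and 1.90 FPKM, all called higher by limma. The receptor of Nodal-type ligands Acvr1c (Alk7) went from 0.00275 and 0.0173 FPKM to 0.815 and 0.936 FPKM and was called higher (limma adjusted p = 0.00474).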
